A study of Mus musculus with 14 samples.

Results

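The effect of Glis3 loss was examined in testis at 1 week of age, before meiotic and haploid germ cells have built up. All samples labelled 1 week old were taken: 4 from WT mice and 4 from Glis3KO2 mice, 8 of the 14 samples of the series. Both groups were of the C57BL/6 strain, untreated, and left with their mother as pups. Mice with a disrupted Glis3 gene carry the label Glis3KO2, and the labels used here give neither the part of the gene that was removed nor a promoter or Cre. They also do not say that the samples were separate animals, so p-values measure only the spread between these samples, which may be technical. The other 6 samples, 3 WT and 3 Glis3KO2 labelled 4 weeks old (the series description says 3 weeks), were used only to ask whether an effect differed between the ages.

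Glis3 is a transcription factor with Krüppel-like zinc fingers, a relative of the GLI factors that carry the hedgehog signal, and its loss in mice is known for neonatal diabetes and hypothyroidism. In the testis it is linked to gonocytes and undifferentiated spermatogonia, the cells that renew the germline and give rise to differentiating spermatogonia, spermatocytes and spermatids. In the week after birth the cords of the mouse testis hold mainly Sertoli cells and spermatogonia, surrounded by Leydig cells, peritubular cells and macrophages. The arrays report RNA of the whole organ, so fewer cells of a type and less RNA per cell cannot be told apart.

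Each value is a log2 signal minus the array's 75th percentile, so that negative values lie under that percentile, and the values of a group are given in the order of replicates 1 to 4. A difference is Glis3KO2 minus WT on this log2 scale. A gene was called when limma's Benjamini-Hochberg adjusted p over all 22507 genes tested was under 0.05.

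The 8 arrays did not fall apart cleanly by genotype. Between 74.3% and 86.6% of non-control spots were well above background: 82.6% to 86.6% on WT replicates 1 to 3, 76.7% on WT replicate 4 and 74.3% to 78.5% on the Glis3KO2 arrays. On the first principal component, which held 52.9% of the variance over genes, WT replicates 1 to 3 lay at -90.4, -55.3 and -67.4, WT replicate 4 at 16.1, and the Glis3KO2 arrays between 26.0 and 89.3. Glis3KO2 replicate 4 had a slide and a scan day of its own. On the slides shared by both groups WT lay at positions 1 and 2 and Glis3KO2 at positions 3 and 4, so position and genotype cannot be told apart there. The median difference over all genes was -0.07, and it was 0.18 when arrays were scaled to their median instead, a shift of all genes upward; the differences below are read beside -0.07. The median difference also moved with brightness, from -0.61 in the dimmest 5627 of the genes, ranked by mean signal and split in 4, to 0.23 in the brightest 5627. The part of brightness and background in the results was not tested.

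The Glis3 probe reads a 60-base stretch of the transcript and is shown because it checks the labels, with its best match to the telomeric repeat, discussed further on, in capitals:
Glis3 probe: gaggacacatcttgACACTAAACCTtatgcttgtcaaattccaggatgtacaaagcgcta
It spans 3534 bases of the genome, chr19:28054217-28057750 on the minus strand in the mm7 coordinates of the files, and therefore crosses at least 1 intron. Its scaled log2 signals were -5.02, -4.75, -5.08 and -4.75 in WT and -7.35, -9.28, -7.86 and -7.81 in Glis3KO2. All Glis3KO2 arrays lay under all WT arrays, and the probe was well above background on 4 of 4 WT arrays and on 0 of 4 Glis3KO2 arrays. With the background level as floor, its signal was at least 4.26-fold lower (measured difference -3.18, SE 0.38, limma adjusted p = 0.00580; exact two-sided permutation p = 0.0286, the smallest that 4 against 4 allows). Within slide 1 the difference was -2.55 and within slide 2 it was -4.54 (limma adjusted p = 0.0565 and 0.196, with 2 or 1 Glis3KO2 arrays), and with slide as a block it was -3.35 (adjusted p = 0.0208). The WT signal itself was near background. After normexp background correction, with an offset of 50 added to each signal, the difference shrank to -0.47 (limma adjusted p = 0.199). Such an offset draws dim signals together, and its part in the smaller difference was not tested. At 4 weeks the difference was -0.62 (adjusted p = 0.275), and the genotype effects at the ages differed by -2.56 (limma interaction, adjusted p = 0.00401).

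Over all genes, 1295 were lower in Glis3KO2 (5.75%) and 837 higher (3.72%). The arrays of the groups did not overlap for 1274 of the lower and 835 of the higher genes; over all genes tested, 11.8% lay without overlap in the lower direction and 15.4% in the higher. The falls were the larger changes: 801 lower and 119 higher genes differed by at least 2-fold, and 216 and 50 by at least 4-fold. Lower genes were 60.7% of the calls, a share that was 26.3% with median scaling, 46.5% with quantile normalization and 49.3% with normexp. A gene could pass the filter through 1 group alone, and among the dimmest 5627 genes 470 were lower and 24 higher. With all arrays of 1 group required above background, 1634 genes were lower and 1357 higher. When all arrays of both groups were required, 1469 were lower and 1618 higher, so the balance turned with the filter. The counts also turned on single arrays. Without WT replicates 1, 2, 3 and 4 in turn 275, 434, 325 and 2590 genes were lower, and without Glis3KO2 replicates 1 and 4 there were 416 and 652. Without WT replicates 1, 2 and 3 the higher genes numbered 81, 101 and 84, and without Glis3KO2 replicates 1 and 4 they numbered 108 and 145. With slide as a block, 412 genes were lower and 68 higher. Within slide 1 (2 arrays a group) and slide 2 (2 WT and 1 Glis3KO2) limma called 0 genes, with 3463 and 959 lower and 944 and 461 higher at an unadjusted p under 0.05; the lone Glis3KO2 array of slide 2 was assumed to vary like the others. There the genes called lower with all arrays had medians of -1.16 and -0.90 and those called higher 0.71 and 0.38, from arrays that also made the calls. Of the 1295 lower genes, 607 were also called lower without Glis3KO2 replicate 4.

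Among called genes measured above background in both groups without overlap, the 12 with the largest falls were Tmem132e, Lhx5, Lin28a, Ldhc, Prok2, Tmem63c, Piwil1, Ssxb2, Jph3, Wnt3, Piwil4 and Efcab10. Tmem132e, which encodes a membrane protein, read -2.33, -1.78, -1.74 and -1.64 in WT and -5.93, -5.52, -5.54 and -6.52 in Glis3KO2. It was 16.0-fold lower (-4.00, SE 0.26, limma adjusted p = 0.00182), with a gap between the groups far wider than the spread in either. Prok2, a secreted ligand of prokineticin receptors, read -2.38, -3.29, -3.06 and -3.42 against -6.58, -6.29, -5.84 and -6.68. That was a difference of -3.31 (SE 0.27, limma adjusted p = 0.00254), again without overlap. Lhx5, a LIM homeobox transcription factor, read -2.54, -3.60, -2.95 and -2.43 against -6.33, -5.87, -5.32 and -9.14. The Glis3KO2 replicate 4 value stood far under the other Glis3KO2 values, so its difference of -3.78 came with a wide error (SE 0.77, limma adjusted p = 0.0323). Nr2e1, an orphan nuclear receptor of neural stem cells that was above background on 4 WT arrays and 1 Glis3KO2 array, read -2.47, -2.80, -3.04 and -2.28 against -7.11, -6.99, -6.69 and -9.24 (-4.86, SE 0.53, limma adjusted p = 0.00440). Among called genes at background on every Glis3KO2 array were Best3, a chloride channel gene, at least 4.69-fold lower, Slc30a10, a manganese transporter, at least 4.28-fold lower, Gtf2a1l, a germ cell form of a general transcription factor, at least 3.32-fold lower, and the homeobox gene Dlx4, at least 3.26-fold lower (limma adjusted p = 0.0458, 0.00562, 0.00346 and 0.00549). In Best3 the groups overlapped, because WT replicate 4 read -7.92 where the other WT arrays read -3.24, -4.07 and -3.82.

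Most listed genes of undifferentiated spermatogonia were lower. Of 32 listed genes tested, 21 were lower and 0 higher, against 5.75% and 3.72% of all genes, and the median difference of the 32 was -1.72 beside -0.07 over all genes. The median of the list lay between -0.02 and 0.06 of the WT mean on the WT arrays and at -1.49, -1.55, -1.13 and -2.03 on Glis3KO2 replicates 1 to 4. The lower count was 12 to 24 when each array was left out, lowest without Glis3KO2 replicate 1; it was 13 without WT replicate 1 or 3, 14 without WT replicate 2 and 16 without Glis3KO2 replicate 4. With slide as a block 13 were lower, and the list median was -1.20 within slide 1 and -1.85 within slide 2. Scaled to the median of the array, the list had a median of -1.48 and 18 lower genes. At an unadjusted p under 0.05, limma gave 26 lower and 0 higher.

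Lin28a, an RNA-binding protein that blocks let-7 maturation and marks undifferentiated spermatogonia, read 0.11, -0.55, -0.67 and -0.03 in WT and -3.74, -3.05, -3.05 and -5.76 in Glis3KO2. It was 12.2-fold lower (-3.61, SE 0.58, limma adjusted p = 0.0170), and the lowest of the 8 values was Glis3KO2 replicate 4. Gfra1, the receptor through which Sertoli cell GDNF maintains the stem cell pool, read -3.19, -2.52, -2.76 and -2.95 against -4.62, -5.03, -4.80 and -5.89. The difference was -2.23 (SE 0.29, limma adjusted p = 0.00705) without overlap, and another Gfra1 probe gave -2.17. Neurog3, a bHLH factor of cells leaving the stem cell state, read -2.08, -2.80, -2.45 and -2.23 against -4.81, -4.54, -4.02 and -5.21. It differed by -2.26 (SE 0.27, limma adjusted p = 0.00575), also without overlap. Tcl1, a coactivator of AKT kinase, read -1.47, -1.37, -1.40 and -1.54 against -4.20, -4.31, -3.40 and -4.31, and Bcl6b, a GDNF-responsive repressor, read -1.42, -1.16, -1.28 and -1.23 against -3.04, -2.97, -2.77 and -3.35. WT spread was narrow for both, and the differences were -2.61 and -1.76 (limma adjusted p = 0.00254 for each).

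The same list held several transcription factors with large falls. Foxc2 differed by -2.12, Sox3 by -2.21, Egr2 by -1.98, Lhx1 by -1.72 and Pou3f1 by -1.86 (limma adjusted p from 0.00254 to 0.0437). Egr4, an immediate early factor needed for male fertility, read 3.67, 3.84, 3.46 and 3.98 in WT and 0.94, 1.08, 2.55 and 0.10 in Glis3KO2, with Glis3KO2 replicate 3 nearest to WT. The T-box factors T and Eomes were at background on all Glis3KO2 arrays and were at least 2.12-fold and 3.19-fold lower (limma adjusted p = 0.00212 and 0.00364). Smaller falls that passed the test were those of Foxo1 (-0.75), Id4 (-0.86; another Id4 probe, above background on all 8 arrays, gave 0.06), Rarg (-0.66) and Etv5 (-1.01; another Etv5 probe gave -0.36). The 11 members not called ranged from Nanos2 (-1.73, adjusted p = 0.0615, groups overlapping) and Glis1 (-1.42, adjusted p = 0.0567, groups not overlapping) to Ccnd2 (0.40, adjusted p = 0.205). Among these were also Utf1 (-0.76), Sall4 (-0.49, where another probe, above background on all 8 arrays, gave -3.19), Cdh1 (-0.01) and Dusp6 (0.26). In the GDNF and FGF list 8 of 27 genes were lower and 0 higher, against 5.75% and 3.72% of all genes. The list median of -0.19 turned to 0.06 with median scaling. All 8 lower genes are also in the spermatogonial list, while the ligand Gdnf itself differed by 0.50 (limma adjusted p = 0.104).

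**Figure D1:**
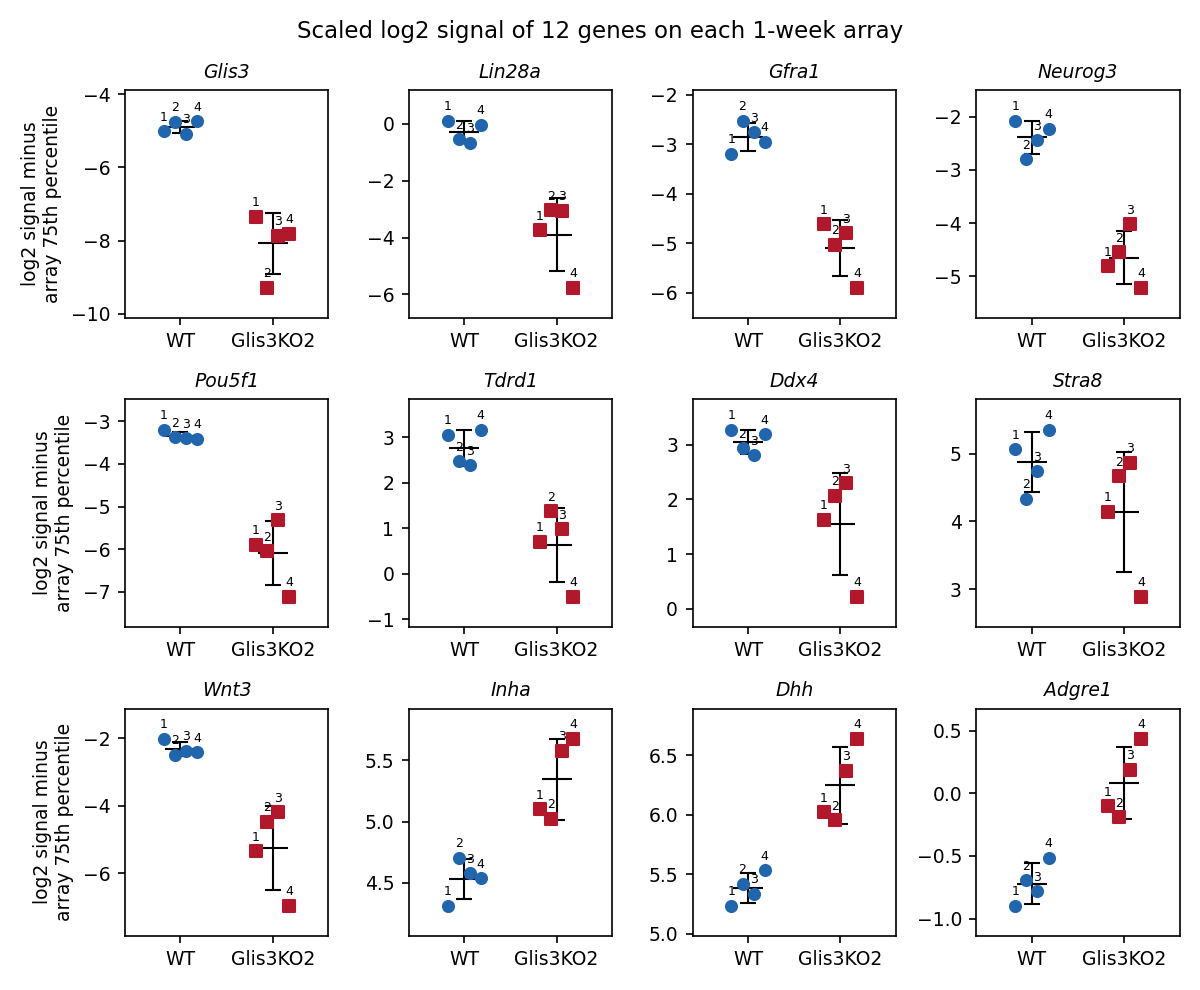
Scaled log2 signal of 12 genes on each 1-week array (vertical axes, each gene with its own range), circles for the 4 WT and squares for the 4 Glis3KO2 arrays, with replicate numbers, mean and SD. Glis3, Lin28a, Gfra1, Neurog3, Pou5f1, Tdrd1 and Wnt3 lie lower in all 4 Glis3KO2 arrays, Stra8 overlaps, and Inha, Dhh and Adgre1 lie higher; Glis3KO2 replicate 4 is the lowest in the germ cell genes other than Glis3.

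Genes shared by fetal germ cells and pluripotent cells were lower in 7 of 18 cases and higher in 0, with a median of -1.07. Over all genes 5.75% were lower and 3.72% higher. Pou5f1 (Oct4), the pluripotency factor, read -3.19, -3.37, -3.39 and -3.41 in WT and -5.89, -6.05, -5.32 and -7.11 in Glis3KO2. The difference was -2.75 (SE 0.34, limma adjusted p = 0.00628), with WT values within a narrow band. Tdh, a threonine-catabolizing enzyme of mouse pluripotent cells, fell by 2.79, Tfap2c by 2.01, the nuclear receptor Esrrb by 1.66 and the de novo methylation cofactor Dnmt3l by 1.34 (limma adjusted p from 0.00705 to 0.0400), while another Esrrb probe gave -0.51. Leaving out 1 array gave 5 to 11 lower genes in this list, 11 of them without Glis3KO2 replicate 3.

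Of 28 general germ cell genes tested, 7 were lower and 0 higher with a median of -1.27, against 5.75% and 3.72% of all genes. Of 30 genes of the piRNA pathway, which silences transposons, 9 were lower and 0 higher with a median of -1.41. Glis3KO2 replicate 4 stood apart in both: the median of the germ cell list was -2.45 there and -1.27, -0.79 and -0.60 on Glis3KO2 replicates 1 to 3, and that of the piRNA list was -2.63 against -1.35 to -0.80. Without that array 12 and 14 genes were lower, with medians of -0.77 and -1.08, and without WT replicate 1 or Glis3KO2 replicate 1 there were 2 in each list. With slide as a block 4 and 7 were lower. Without WT replicates 2 and 3 the lower counts were 4 in each list.

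Piwil4 (MIWI2), the nuclear PIWI protein of fetal and neonatal germ cells, read -0.19, -0.84, -0.78 and -0.42 in WT and -3.31, -3.15, -2.92 and -4.29 in Glis3KO2. It was 7.26-fold lower (-2.86, SE 0.30, limma adjusted p = 0.00396) without overlap. Tdrd1, a Tudor protein of the piRNA granules, read 3.06, 2.47, 2.39 and 3.17 against 0.70, 1.38, 0.98 and -0.50 (-2.13, SE 0.40, limma adjusted p = 0.0257), and another probe gave -2.10. Tdrd5 differed by -1.54, Piwil2 by -1.74, the RNA methyltransferase Henmt1 by -2.05 and Piwil1 by -3.07 (limma adjusted p = 0.00653, 0.0435, 0.0415 and 0.0336). Ddx4 (VASA), the germ cell RNA helicase, read 3.28, 2.94, 2.81 and 3.19 against 1.63, 2.07, 2.30 and 0.22; the groups did not overlap, but the difference of -1.50 missed the threshold (limma adjusted p = 0.0573). Dazl, a translation factor of germ cells, differed by -0.90 with overlapping groups (limma adjusted p = 0.172), while another Dazl probe gave -1.76.

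Genes of differentiating spermatogonia and of meiotic entry were called less often than the germ cell lists above. In the differentiating list the median was -0.40, and limma gave 6 of 16 genes lower and 1 higher at an unadjusted p under 0.05. After adjustment 3 of the 16 were lower and 0 higher, against 5.75% and 3.72% of all genes. These were Kit, the receptor for stem cell factor, with 1.06, 0.23, 0.45 and 0.22 in WT and -0.57, -0.18, -0.95 and -0.97 in Glis3KO2 (-1.16, limma adjusted p = 0.0369), Dnmt3b (-1.07, limma adjusted p = 0.0362) and Lmo1 (-1.76, limma adjusted p = 0.0446). None of the 3 passed without Glis3KO2 replicate 4, and the same held without WT replicate 1, 2 or 3 and without Glis3KO2 replicate 1. Stra8, the retinoic acid target that opens meiosis, read 5.07, 4.34, 4.74 and 5.36 against 4.14, 4.67, 4.87 and 2.89. Glis3KO2 replicates 2 and 3 lay within the WT range, and the difference of -0.73 did not pass (limma adjusted p = 0.248). Of 26 early meiotic genes 1 was lower, Mei4 (-1.49, limma adjusted p = 0.0363), and the median of -0.56 was -0.14 without Glis3KO2 replicate 4, where 0 passed (5 at an unadjusted p under 0.05 in limma with all arrays). The axis protein gene Sycp3 differed by -0.14 and Sycp1 by -0.75, both with overlapping groups (limma adjusted p = 0.857 and 0.320).

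Some genes known from spermatocytes and spermatids were already measurable at 1 week and lower. Ldhc, the testis form of lactate dehydrogenase, read -2.84, -3.11, -3.20 and -2.22 in WT and -6.52, -5.95, -5.19 and -7.04 in Glis3KO2. It was 10.1-fold lower (-3.34, SE 0.40, limma adjusted p = 0.00600) without overlap. Of 24 genes listed for pachytene spermatocytes 5 were lower and 1 higher, against 5.75% and 3.72% of all genes. The list median was -0.40. The lower genes were Ldhc, Piwil1, the kinase Aurkc (-1.43), the cyclin Ccna1 (-1.22) and the chaperone Clgn (-1.78). The higher one, Pgk2 (1.71, limma adjusted p = 0.0416), had a probe with the repeat letters described below. The lower count was 1 without WT replicate 1 or 3 or Glis3KO2 replicate 1, 2 without WT replicate 2 and 3 with slide as a block. Round spermatid genes were lower in 3 of 14 cases (Papolb, Tekt1 and Izumo1; 0 without WT replicate 1 or 2 and 1 without WT replicate 3, Glis3KO2 replicate 1 or Glis3KO2 replicate 4) and elongating spermatid genes in 1 of 14 (Akap4). Among 27 X-linked germ cell genes 3 were lower: Ssxb2 (-3.01), Ssxb1 (-2.70), whose products are close relatives that 1 probe may not separate, and Akap4 (-1.48). The elongating spermatid count lay near the share of all genes.

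**Figure D2:**
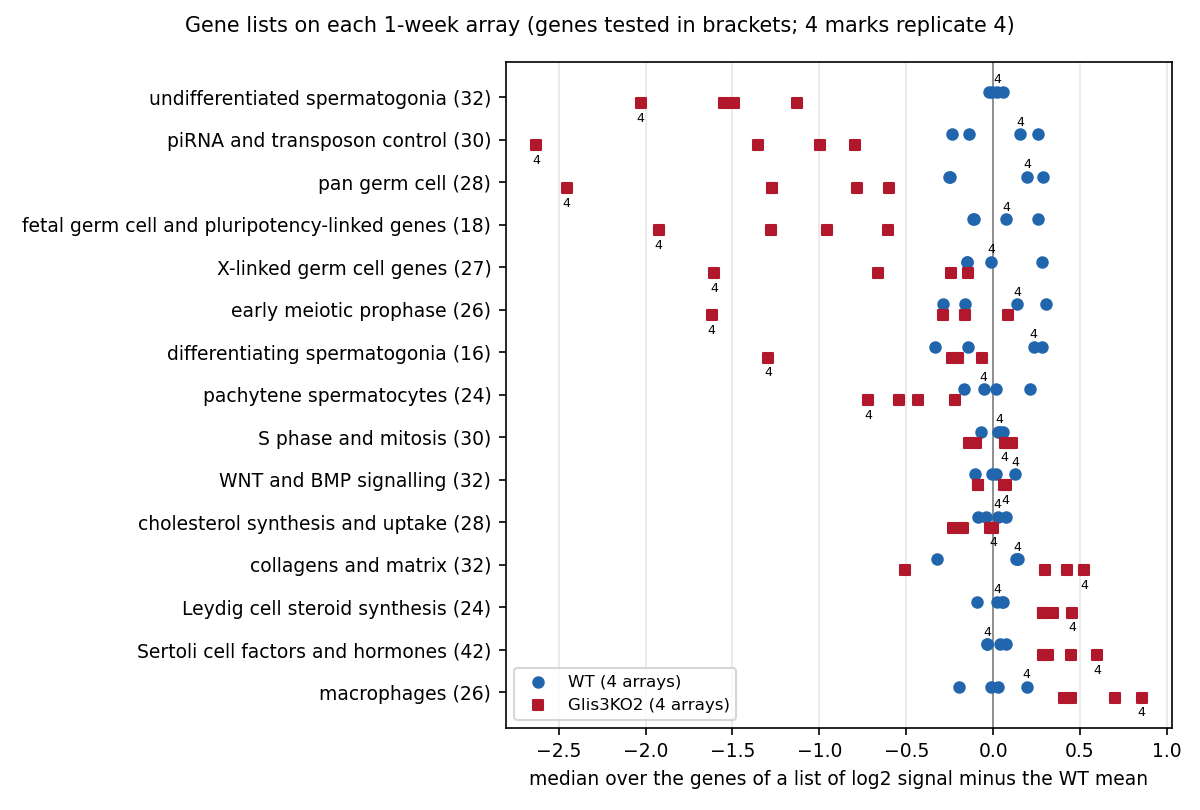
Median over the genes of a list of log2 signal minus the WT mean (horizontal axis) on each 1-week array, for 15 gene lists with the number of genes tested in brackets; circles are WT, squares Glis3KO2, and 4 marks replicate 4. The spermatogonial list lies between -2.03 and -1.13 on the Glis3KO2 arrays and within 0.06 of 0 on the WT arrays, the early meiotic list overlaps apart from Glis3KO2 replicate 4, and the Sertoli and macrophage lists lie between 0.29 and 0.86 on Glis3KO2.

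A number of somatic cell genes were higher. Of 42 Sertoli cell genes 12 were higher and 0 lower, with a median of 0.39 that was 0.64 with median scaling. Over all genes 3.72% were higher. Many of the somatic genes named are bright, and among the brightest 5627 genes 379 were higher and 82 lower, with a median of 0.23. The part of brightness in the somatic rises was not tested. Inha, the alpha subunit of inhibin, read 4.31, 4.71, 4.58 and 4.54 in WT and 5.10, 5.02, 5.58 and 5.68 in Glis3KO2, a difference of 0.81 (SE 0.18, limma adjusted p = 0.0392) without overlap. Dhh, the hedgehog ligand that Sertoli cells send to Leydig and peritubular cells, read 5.24, 5.42, 5.34 and 5.54 against 6.02, 5.95, 6.37 and 6.64 (0.86, SE 0.17, limma adjusted p = 0.0308). Inhbb (0.72; another probe gave 0.16), Amh (0.96), Shbg (0.67), Hsd17b1 (1.16), Ptgds (1.12) and Krt18 (1.34) were also higher, each with an adjusted p between 0.0209 and 0.0498. Sox9 (0.05) and Wt1 (-0.07), which define the Sertoli cell, overlapped between the groups (limma adjusted p = 0.811 and 0.644). Other Sox9 probes gave 0.36 and -0.03. Of 18 genes of the blood-testis barrier and Sertoli junctions 5 were higher, among them Gja1 (0.73) and Jam2 (0.84; another probe gave 0.27).

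These rises rested on particular arrays. Without Glis3KO2 replicate 4, 3 Sertoli genes and 0 barrier genes passed, and without WT replicate 1, WT replicate 2 or Glis3KO2 replicate 1, 0 of either list did; without WT replicate 3 there were 1 and 0. With slide as a block 0 of either list passed in limma. At an unadjusted p under 0.05 with all arrays, 21 Sertoli genes were higher and 2 lower, and 7 barrier genes were higher and 1 lower. The list medians without Glis3KO2 replicate 4 were 0.33 and 0.23.

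Leydig cell genes were higher in 4 of 24 cases and lower in 0, with a median of 0.34. Over all genes 3.72% were higher and 5.75% lower. Insl3, the hormone of testis descent, read 2.90, 2.55, 2.67 and 2.76 in WT and 3.24, 3.15, 3.57 and 3.46 in Glis3KO2 (0.63, SE 0.14, limma adjusted p = 0.0369). The others were Fdxr (0.79), which feeds electrons to steroidogenic P450 enzymes, Hsd3b1 (0.62) and Hsd3b6 (0.55); a shared sequence among Hsd3b genes makes the last pair uncertain. Cyp17a1 (0.47) and Star (0.16) overlapped between the groups, as Glis3KO2 replicate 4 lay under WT replicates 2 to 4 in both; WT replicate 1 read 0.29 and -0.91, under all other arrays. The Leydig count was 0 to 4 when each array was left out, 1 without Glis3KO2 replicate 4 and 0 with slide as a block. Cholesterol genes went both ways, with Hsd17b7 (-1.15; another probe gave -0.34), Insig1 (-1.03) and Lss (-0.97; other probes gave -0.92 and 0.17) lower and Ebp (0.77) and Pmvk (0.65) higher among 28, and a median of -0.10 that was 0.15 with median scaling.

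Macrophage genes were higher in 9 of 26 cases and lower in 0, with a median of 0.61, where 3.72% and 5.75% of all genes were. Adgre1 (F4/80), a macrophage surface receptor, read -0.90, -0.69, -0.78 and -0.51 in WT and -0.10, -0.19, 0.19 and 0.44 in Glis3KO2 (0.81, SE 0.17, limma adjusted p = 0.0335), without overlap, and another probe gave 0.23. Tyrobp (0.98), C1qc (0.81), Ctss (0.79) and Folr2 (0.72) were also higher, and Csf1r just missed the threshold (0.61, limma adjusted p = 0.0509; other probes gave 0.41 and 0.11). Of 16 antigen presentation genes 6 were higher, including H2-Ab1 with -1.77, -1.34, -1.27 and -1.22 against -0.54, -0.41, -0.53 and -0.16 (0.99, limma adjusted p = 0.0164) and H2-DMb1 (1.28); 3 other H2-Ab1 probes gave 0.66 to 0.86. The macrophage count was 0 without WT replicate 1, 2 or 3 or Glis3KO2 replicate 1 or 4, 3 without Glis3KO2 replicate 3, 10 without Glis3KO2 replicate 2, 11 without WT replicate 4, and 0 with slide as a block, with 18 higher and 0 lower at an unadjusted p under 0.05 in limma with all arrays, and the antigen presentation count was 3 to 8, and 3 with slide as a block. Collagen and matrix genes (1 of 32 higher) and peritubular genes (1 of 14 higher) gave few calls. Of 20 endothelial genes 3 were higher and 1 lower, with a median of 0.26. Their higher count was 0 to 3 when each array was left out and 0 with slide as a block. At an unadjusted p under 0.05 in limma with all arrays, 5 endothelial genes were higher and 3 lower.

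Some genes listed for tissues other than the testis were higher. These were epididymal genes in 2 of 10 cases (Cst11 and Cst8), adipose genes in 3 of 12 (Plin1, Fabp4 and Slc2a4) and adrenal cortex genes in 2 of 4 (Akr1b7 and Mrap). Over all genes 3.72% were higher. In these 3 lists 0 genes were lower, but the list medians were -0.02, -0.09 and 0.12. Leaving out 1 array gave 0 to 2, 1 to 3 and 0 to 2 higher genes. Of 6 red blood cell genes 0 were called (5 were higher at an unadjusted p under 0.05 in limma). The summed linear signal of the epididymal genes ranged from 4.87 to 6.17 on WT and 7.62 to 13.7 on Glis3KO2 arrays, in units of the 75th percentile signal, with 6 members above background on no 1-week array. For the adipose genes the ranges were 15.1 to 17.5 and 18.4 to 29.7, and for the adrenal genes 1.26 to 1.76 and 2.35 to 3.56. Their part in the somatic rises was not tested.

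Some signalling genes were lower. Of 32 WNT and BMP genes 7 were lower and 1 higher, against 5.75% and 3.72% of all genes. The list median of -0.10 was 0.15 with median scaling. Wnt3, a secreted WNT ligand, read -2.00, -2.49, -2.36 and -2.40 in WT and -5.35, -4.47, -4.19 and -6.96 in Glis3KO2, a 7.61-fold difference (-2.93, SE 0.55, limma adjusted p = 0.0265); another probe gave -2.70. Wnt3a was at background on all Glis3KO2 arrays and at least 2.33-fold lower (limma adjusted p = 0.0277). Lef1 (-1.23) and Tcf7 (-0.60), nuclear partners of beta-catenin, its target Axin2 (-0.69), the WNT inhibitor Wif1 (-0.90) and the activin antagonist Fst (-0.97) were lower, and Wnt6 (0.80) was higher. The lower count was 1 without WT replicate 1, 2 or 3, 2 without Glis3KO2 replicate 1 and 4 without Glis3KO2 replicate 3 or 4. Among 20 GLI and hedgehog genes, Glis3, Zic1 (-2.64), Gli3 (-0.53) and the coreceptor Cdon (-0.52) were lower and Dhh was higher, while the pathway targets Gli1 (0.01) and Ptch1 (-0.56) overlapped. The retinoic acid hydroxylase Cyp26a1 read -2.31, -2.62, -2.51 and -2.34 in WT and -3.92, -3.62, -3.75 and -4.44 in Glis3KO2 (-1.49, limma adjusted p = 0.00691), and Dio3, which inactivates thyroid hormone, read -1.85, -2.05, -1.98 and -1.26 against -3.03, -3.05, -3.08 and -2.80 (-1.20, limma adjusted p = 0.0152). Cell cycle genes (3 lower of 30), p53 targets (1 lower and 1 higher of 20), hypoxia genes (2 lower of 21) and immediate early genes (0 of 20) gave few calls. For the immediate early genes, differences ranged from -0.53 to 0.84, with 2 lower and 1 higher at an unadjusted p under 0.05 in limma.

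Promoters of the fallen genes were searched for CCCCCCAC, the core of the binding sequence known for GLIS proteins, or its reverse complement GTGGGGGG, in the 250 bases before the start site given by RefSeq (GRCm38.p6). The core was present for 4.14% of all promoters, 4.82% of those of genes tested, 5.54% of those of lower genes, 4.30% of those of higher genes and 10.6% (13 of 123) of those of genes lower by at least 4-fold. Among 36 lower genes named above or in the spermatogonial list, 29 had an entry and 6 held the core. Those of 3 spermatogonial genes are shown as 60-base stretches on the strand of the gene, with the core in capitals, because these genes carry the fall described above:
Neurog3, chr10:62132924-62132983, plus strand: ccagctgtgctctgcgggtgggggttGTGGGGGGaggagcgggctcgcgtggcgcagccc
Egr4, chr6:85513590-85513649, minus strand: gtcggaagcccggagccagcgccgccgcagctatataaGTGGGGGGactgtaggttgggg
Pax7, chr4:139833024-139833083, minus strand: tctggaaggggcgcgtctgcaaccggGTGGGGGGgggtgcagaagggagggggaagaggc
Foxo1, Jph3 and Upp1 held it too. These letters are no evidence of binding, and most lower genes, Lin28a and Gfra1 among them, had none in this window or no entry.

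The largest rises shared a sequence in the probe. The 12 largest among called genes, Dnajb8, Acot6, Syt6, St6galnac5, Adamtsl3, Evx2, Bcl2l14, Cpb2, Erv3, Eml6, Crisp4 and Kif12, ranged from 3.66 to 2.98, and every one had a probe with a match of 7 to 17 bases to the repeated telomeric unit CCCTAA. The match was scored as the best ungapped stretch, 1 for a matching and -1 for a differing base, and a score of 7 or more was taken as a match. A score of exactly 7 went with no rise overall: of 618 such genes 28 were higher (4.53%) and 38 lower, with a median of -0.15. Of the 50 genes higher by at least 4-fold 49 had such a probe, against 4.13% of all genes tested and 11 of the 216 genes lower by at least 4-fold. Shown are 30-base stretches of probes, with the scored match in capitals, since they are what these genes have in common:
Dnajb8: acaagtgacagccaCCTAACCCatccctgg
Acot6: aagacaatgttCCCTAACCattaaagcgca
Syt6: aaaaaagaacACCCTAAACCccgtctacaa
Bcl2l14: cttaagtcttgCTAACCCgtcctctcaaaa
Eml6: atcctcaattACCCTAACCaatatgtagcg
Kif12: acagggACCCTGACCCTAGACCTtgaacct
Terc: aCCTAACCCTgattttcattagctgtgggt
The Terc probe is included because its match is the template that telomerase copies, and Terc was chosen after its values were seen.

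The rise went with particular letters and mainly with 1 strand. Of 71 genes whose probe holds CTAACCC, 36 were higher and 0 lower, with a median of 0.91. Over all genes tested 3.72% were higher and 5.75% lower, with a median of -0.07. CCTAACC gave 37 higher and 1 lower of 69 (median 0.85), CCCTAAC 22 and 1 of 53 (median 0.63), TAACCCT 25 and 3 of 90 (median 0.21), ACCCTAA 16 and 6 of 82 (median 0.09) and AACCCTA 18 and 7 of 102 (median -0.11). Each reverse complement gave a smaller median than the letters it complements. AGGGTTA gave 9 higher and 0 lower of 64 (median 0.05), and GGGTTAG 4 and 1 of 39 (median 0.04). GTTAGGG gave 4 and 3 of 50 (median -0.09), and TTAGGGT 2 and 4 of 66 (median -0.13). For TAGGGTT the counts were 3 and 1 of 69 (median -0.15), and for GGTTAGG 0 and 0 of 35 (median -0.17). The 6 reverse complements together gave 15 higher (5.98%) and 9 lower of 251, against 3.72% and 5.75% of all genes. The lead of the 71 CTAACCC probes over the WT mean had a median of 0.72, 0.54, 1.41 and 0.94 on Glis3KO2 replicates 1 to 4 and of 0.31, -0.14, 0.01 and -0.02 on WT replicates 1 to 4. At 4 weeks the same 71 genes had a median of -0.18, with 16 higher and 19 lower, when 31.2% of all genes were higher and 29.9% lower. These letters and groups were chosen after the values were seen, so no test was made.

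Other probes of the same genes rose by less or fell. Dnajb8 had 1 probe tested, with -3.31, -5.26, -4.18 and -3.76 in WT and -0.73, -0.95, 0.11 and -0.32 in Glis3KO2 (3.66, SE 0.42, limma adjusted p = 0.00512). For Adamtsl3 a probe without the match gave -0.15 where the matching one gave 3.41, for Bcl2l14 -0.45 against 3.24, and for Eml6 -0.59 and -1.57 against 3.01. Hmga2, a chromatin protein of early cells, rose by 2.85 on a matching probe and gave -0.71 and -0.90 on the others. For Acot6 and Kif12 the other probe, which also scored 7, gave 0.94 and 1.01. The differences of these genes are thus given as values of the probes.

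**Figure D3:**
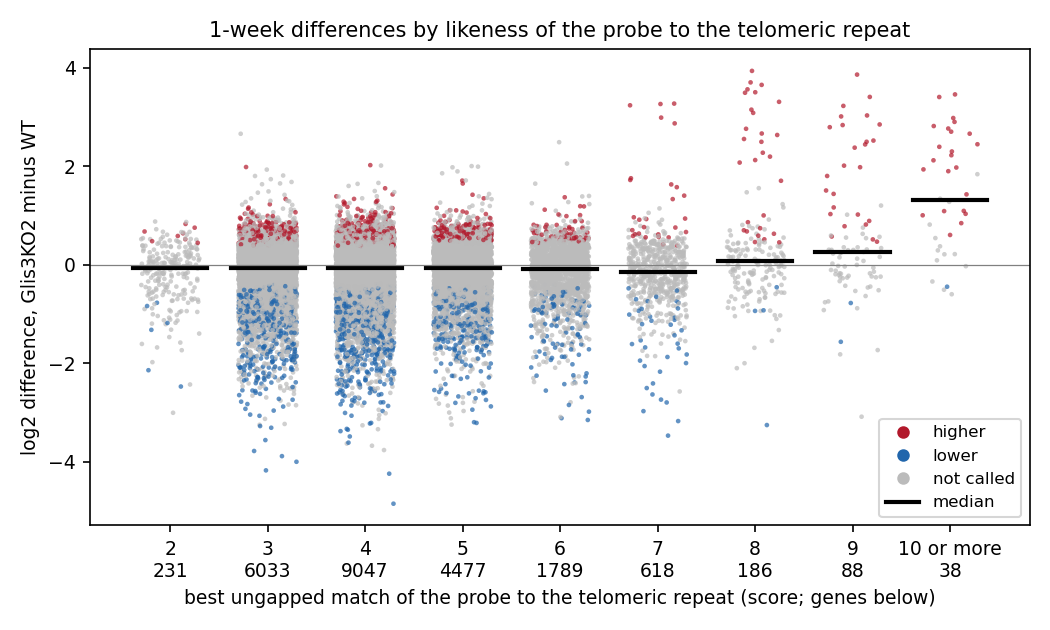
Log2 difference, Glis3KO2 minus WT at 1 week (vertical axis), of the 22507 genes by the score of their probe's best match to the telomeric repeat (horizontal axis, with the number of genes), red for higher, blue for lower, grey for not called, and a black bar for the median. The median is -0.07 over scores up to 6, -0.15 at 7, 0.07 at 8, 0.26 at 9 and 1.31 at 10 or more.

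Among probes with a score under 7, the 12 largest rises, a set added after the values were seen, were Cbln1, Rhox3a, Clec7a, Cnmd, Cltrn, Miox, Rimbp2, Pcp2, Mb, Krt18, Spin2c and Aqp12, from 2.02 to 1.30. Rhox3a, an X-linked reproductive homeobox gene with near-identical copies that 1 probe may not separate, read -3.24, -3.27, -3.33 and -3.03 in WT and -1.25, -0.95, -0.74 and -1.99 in Glis3KO2. It was 3.96-fold higher (1.99, SE 0.26, limma adjusted p = 0.00705) without overlap. Clec7a (dectin-1), a receptor of myeloid cells, read -6.33, -6.09, -6.40 and -5.74 against -4.90, -4.20, -4.84 and -4.01 (1.65, limma adjusted p = 0.0133). Cbln1, a secreted synapse organizer, read 1.96, 3.18, 2.58 and 2.27 against 4.07, 3.29, 4.95 and 5.78, and its difference of 2.02 was barely past the threshold (limma adjusted p = 0.0496) and missed it in 13 of 21 alternative settings.

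Called genes also lay around Glis3 itself. Within 5 Mb of its probe on chromosome 19, 77 genes under other names were tested. Of these 12 were lower (15.6%) and 2 higher (2.60%), against 5.75% and 3.72% of all genes. Within 20 Mb 7.81% of 474 genes were lower, and on the rest of the chromosome 4.56% of 285. Named in order along the chromosome, and chosen for their place after their values were seen, the lower genes were Apba1 at -4.41 Mb (-1.87), Dmrt2 at -2.68 Mb (-1.66), the potassium channel gene Kcnv2 at -1.02 Mb (-2.52), Cd274 (PD-L1) at 1.03 Mb (-2.05), the melanosome gene Mlana at 1.35 Mb (-1.53), the glycine cleavage enzyme Gldc at 1.74 Mb (-0.76), Mbl2 at 1.88 Mb (-2.76) and Prkg1 at 2.21 Mb (-0.82). Of the 12, 4 are known only as cDNA clones, and 2 of these, at -0.004 and 0.16 Mb, differed by -2.75 and -2.95. Whether these 2 clones are transcripts of Glis3 itself was not tested, and they are counted among the 12. Cd274, the ligand of an immune checkpoint receptor, read -2.08, -2.17, -2.45 and -2.21 in WT and -4.22, -4.27, -4.08 and -4.58 in Glis3KO2 (SE 0.14, limma adjusted p = 0.00182), without overlap. At 4 weeks these genes went different ways. Cd274 differed by -0.48, Kcnv2 by -0.49, Mlana by 0.32 and Mbl2 by -1.20, and their interaction with age passed (limma adjusted p = 1.75e-04, 0.00732, 0.00485 and 0.0355). Apba1 differed by -1.73 and Dmrt2 by -0.91, with interactions that did not pass (limma adjusted p = 0.856 and 0.113). Gldc (-2.03) and Prkg1 (-2.43) differed by more at 4 weeks than at 1 week (interaction adjusted p = 0.0127 and 0.00194 in limma). On the X chromosome 3.28% of 823 genes were lower and 5.10% higher.

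**Figure D4:**
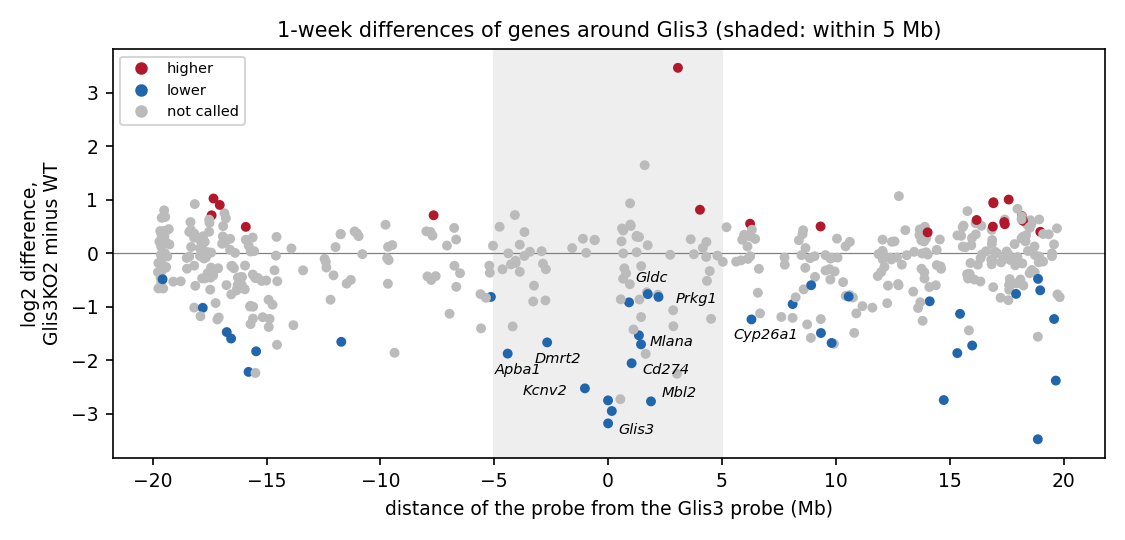
Log2 difference, Glis3KO2 minus WT at 1 week (vertical axis), of genes within 20 Mb of the Glis3 probe by the distance of their probe (horizontal axis, Mb), red for higher, blue for lower and grey for not called. Inside the shaded 5 Mb, 12 of 77 genes under names other than Glis3 are lower.

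The effect at 1 week differed from that at 4 weeks, when meiotic and haploid germ cells fill the WT testis. In 1 limma fit of all 14 arrays the genotype effect differed between the ages for 50.9% of 23543 genes, so a difference between the ages was the common case. Of the 1295 genes lower at 1 week, 600 were lower, 173 higher and 522 not called at 4 weeks, when 29.9% of all genes were called lower and 31.2% higher; of the 837 higher ones, 513 were higher, 149 lower and 175 not called. The ages lie on different slides and scan days, and age and slide cannot be told apart.

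Spermatogonial genes diverged between the ages. Of the 32, 3 were lower and 11 higher at 4 weeks, with a median of 0.36 in place of -1.72. The 11 higher genes are a share near the 31.2% of all genes. For 25 of the 32 the 1-week effect was the more negative in the interaction, as for 6719 of all 23543 genes. Lin28a differed by 0.43 at 4 weeks (interaction -4.05, limma adjusted p = 7.12e-04), Piwil4 by 1.01 (-3.87, 4.02e-05), Foxc2 by 1.55 (-3.67, 1.12e-05) and Egr2 by 2.77 (-4.75, 1.32e-05), the values in brackets being the interaction and its limma adjusted p. Gfra1 differed by -2.31 at 4 weeks (interaction 0.13, limma adjusted p = 0.821), and Id4 and Lhx1 gave -0.90 and -1.54 with interactions of 0.04 and -0.18 that did not pass. Pachytene genes went the other way, with 24 of 25 lower at 4 weeks and a median of -2.25, and 14 with a less negative effect at 1 week. Sertoli genes were higher in 34 of 42 cases at 4 weeks with a median of 1.64, and for 29 the 1-week effect was the smaller.

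**Figure D5:**
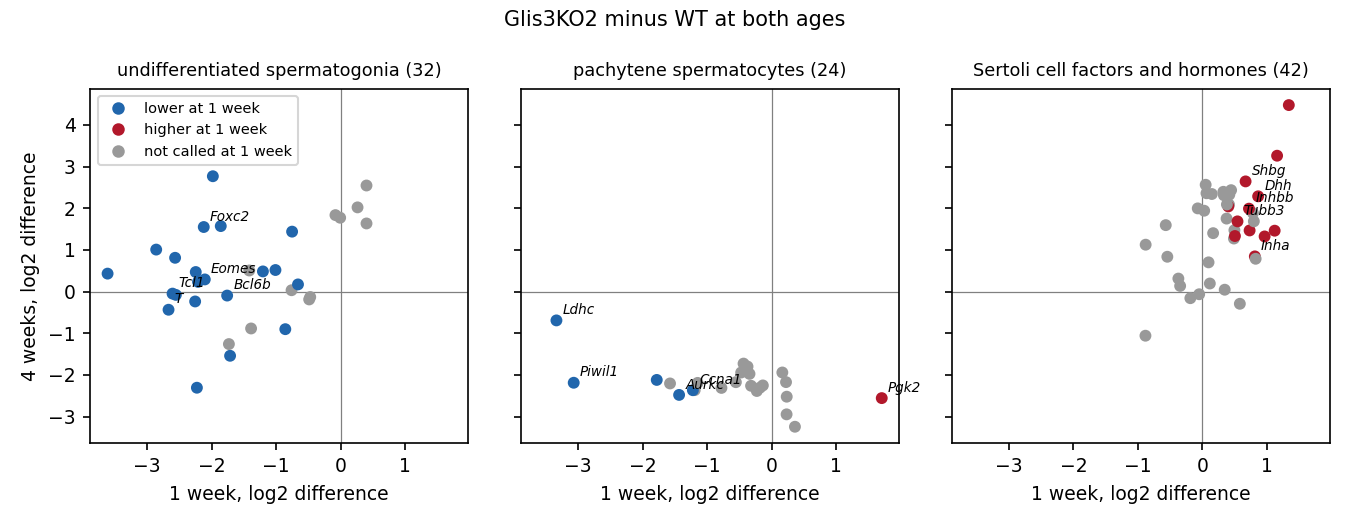
Log2 difference, Glis3KO2 minus WT, at 1 week (horizontal axis) and 4 weeks (vertical axis) for the genes of 3 lists, blue where lower, red where higher and grey where not called at 1 week. Spermatogonial genes spread to the left with 4-week values on both sides of 0, pachytene genes lie low at 4 weeks with most near 0 at 1 week, and Sertoli genes lie higher at 4 weeks than at 1 week.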

How the data were processed

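Per the labels, total RNA was labelled with Cy3 and put on single-colour Agilent arrays of 60-base probes; spots were quantified in Agilent Feature Extraction 9.5, per the submitters' processing notes. Per the file headers, the deposited intensity is background-subtracted, with no normalization between arrays, and the files also hold spot flags; the authors' series table equals it on all 45018 spots. The deposited intensity was put on the log2 scale, non-uniform and population-outlier spots were left out, repeated spots were averaged, and each array's 75th percentile over the 43379 non-control spots was taken off. Probes had to be well above background on 3 or more of the 4 arrays in a group, and a gene was read from its brightest probe. Of 41174 probes, 22996 were named through their accession, 6659 by symbol, 3077 by synonym and 8442 by the file. A fold against a group with no array above background is given as a bound, set by the lowest signal well above background.

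The 8 arrays of 1 week were fitted gene by gene in limma 3.58.1 (lmFit and eBayes, R 4.3.3) with Benjamini-Hochberg adjustment, and all 14 arrays in 1 fit gave the interaction with age. Lists are described by counts and medians, with no set test. The fit was also run on simulated data, and no result given here rests on that run. Alternatives changed the scaling, background correction, filter, probe choice, moderation, blocks, slides and arrays. The members and lists were chosen with earlier results of these data known. Genes named are Glis3, the 12 largest differences per direction among called genes that were above background in each group and did not overlap, the 5 largest bounds, the 4 largest interactions per direction, and, from each list, at most 4 members by p, with further members as examples; clone and accession names were passed over. List counts without each array, the repeat letters, the promoter core and the rises without the repeat were chosen after seeing the data. Promoters are from RefSeq (GRCm38.p6), matched by symbol.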

Additional observations from a re-analysis of the deposited data

Results flagged for a closer look

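Within a group of 4 arrays, a value was noted when its gap to the nearest other value took up more of the group's range than Dixon's 95% critical value allows. Chance gives about 1 such value in 20 groups, and 17 were found among 328 groups of the named genes; the values in brackets are scaled log2 signals. WT replicate 1 stood apart from the other WT arrays in Cpb2 (-1.70), Mcpt4 (-4.53), Des (-1.51), Mgp (2.86), Dcn (5.24), Cdc6 (-0.19), Slc2a4 (-0.86) and Mrap (-2.22). Glis3KO2 replicate 4 stood apart from the other Glis3KO2 arrays in Nr2e1 (-9.24), Izumo1 (-9.04), Shbg (3.12), Rdh11 (1.47) and Dio3 (-2.80). Glis3KO2 replicate 3 stood apart from the other Glis3KO2 arrays in Tcl1 (-3.40). WT replicate 4 stood apart from the other WT arrays in Tekt1 (-1.45). Glis3KO2 replicate 2 stood apart from the other Glis3KO2 arrays in Sox17 (-1.52) and Fabp4 (-2.10).

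For 27 of the genes named for their size or for the difference between the ages, the 1-week and 4-week genotype effects differed in the limma interaction, which called 50.9% of all genes. The 1-week effect was the more negative, as 1-week minus 4-week log2 difference, for Best3 (-6.93), Ildr2 (-6.87), Nr2e1 (-5.51), Gpr176 (-4.85), Lin28a (-4.05), Piwil4 (-3.87), Tmem132e (-3.46), Ldhc (-2.64), Glis3 (-2.56), Dlx4 (-2.29), Slc30a10 (-2.26), Jph3 (-1.46) and Tmem63c (-1.42). It was the more positive for Dnajb8 (6.98), Prss55 (6.25), Hmga2 (5.24), Eml6 (5.12), St6galnac5 (4.82), Adamtsl3 (4.54), Syt6 (3.72), Erv3 (3.66), Crisp4 (3.55), Cpb2 (3.46), Evx2 (3.20), Acot6 (2.87), Kif12 (2.29) and Bcl2l14 (2.29). Every gene of the second set was measured by a probe that scores 7 or more for the telomeric repeat. Age and slide cannot be told apart in these values.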

How the results depend on the processing

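The number of lower genes was 1295 with all arrays and the 75th percentile. It was 704 with no filter on dim probes, 2306 in 1 fit of both ages, 412 with slide as a block, 0 within slide 1 and 0 within slide 2 in limma, and 275 to 2590 when 1 array was left out. The number of higher genes was 837, and 2748 with median scaling, 1439 with quantile normalization, 206 with no filter, 1357 and 1618 with the filter on all arrays of 1 or both groups, 1957 with an intensity trend and robust moderation, 1568 in 1 fit of both ages, 68 with slide as a block, 0 within slide 1 and 0 within slide 2, 272 without both replicates 4 (chosen after seeing the data), and 81 to 1114 when 1 array was left out. Within the slides limma gave 3463 and 959 lower and 944 and 461 higher genes at an unadjusted p under 0.05. Glis3 was lower in each setting that tested its probe, which left out the filter on both groups and the removal of repeat-matching probes, but missed the threshold with normexp (-0.47), within slide 1 (-2.55) and within slide 2 (-4.54); without 1 array its difference was -3.42 to -2.77. The number of genes whose effect differed between the ages stayed within 1.5 times of 11992 in every setting run. Without probes that match the repeat Adamtsl3 turned to -0.15, Bcl2l14 to -0.45, Eml6 to -0.59 and Hmga2 to -0.90, since another probe then stood for the gene; Bcl2l14 was also -0.45 in 1 fit of both ages, and Papolb 0.023 with normexp, where the cause was not tested. With the replicate number as a block 316 genes were lower and 63 higher; samples of the same number did not all deviate together (correlations of -0.17, -0.13, 0.02 and 0.16), so the numbers were not taken as pairs. Where a group lies at background, only a bound can be given. The authors' series table holds the same intensities as the scanner files and was not run again.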

Other observations

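Some gene groups not described above gave a few calls in each direction. Of 25 complement and interferon response genes 4 were lower and 1 higher (5.75% and 3.72% over all genes), with a median difference of 0.16. The interferon-induced genes Oasl2 (-0.87), Ifit1 (-1.24), Irf1 (-0.62) and Gbp3 (-0.52) were lower, and Ifit3 (0.55) was higher, so the interferon genes did not move together. Of 19 heat shock and unfolded protein response genes 4 were higher and 0 lower: Chac1 (0.89), which degrades glutathione, Asns (0.54), which makes asparagine, and Herpud1 (0.53) and Hspb1 (0.53). The count was 0 to 5 when each array was left out, with 7 higher and 0 lower at an unadjusted p under 0.05 in limma with all arrays.

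The calls in the 4 lists that follow stand beside 5.75% of all genes lower and 3.72% higher. Among 20 retinoic acid genes Rarg (-0.66), a receptor, was lower beside Cyp26a1, while Aldh1a3 (0.66; another probe gave -0.08), which makes retinoic acid, and Rdh11 (0.55), a retinal reductase, were higher. Thrsp (0.71) was the higher of the 2 called among 15 thyroid hormone genes. Of 17 genes of lymphocytes, mast cells and granulocytes, Kit was lower and Nkg7 (0.73), a gene of cytotoxic cells, higher. The mast cell proteases Cpa3, Cma1 and Mcpt4 differed by 1.90, 1.86 and 1.71 without passing (limma adjusted p = 0.0818, 0.0552 and 0.0648). Of 14 skeletal muscle genes Actn3 (-1.18) and Myh4 (-0.93), both of fast fibres, were lower and 0 were higher (3 and 2 at an unadjusted p under 0.05 in limma).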
